A study of Mus musculus with 4 samples.

Results

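Chromatin accessibility was examined at 6 mouse genes that mark or serve the long-range projecting interneurons that make nitric oxide, taken as a listed set out of 21938 protein-coding genes of the GENCODE M21 annotation. The genes were Nos1, Chodl, Tacr1, Nos1ap, Gucy1a1 and Gucy1b1, and all 6 were measured in all libraries. They were listed by name and no value entered the rule, but the list was chosen with earlier results of these data known. For each gene, the transposition cut sites in peaks that touched the gene or its first 2 kb upstream, here called its window, were summed and scaled to the library's total as CPM, the number per 1000000 cut sites in the library's peaks. Sst and Npy, which encode the neuropeptides somatostatin and neuropeptide Y, served as partner genes.

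Long-range projecting nitric oxide neurons are a rare class of cortical and hippocampal inhibitory neuron, known for strong neuronal nitric oxide synthase, for Sst and Npy, for the receptor of substance P and for axons that leave their own area. Nitric oxide diffuses out of the producing cell and binds soluble guanylyl cyclase, an enzyme of an alpha and a beta subunit that makes cyclic GMP. Among the listed genes, Nos1 encodes the synthase, Nos1ap its adaptor protein, Gucy1a1 and Gucy1b1 the 2 cyclase subunits, Tacr1 the substance P receptor and Chodl the membrane protein chondrolectin, a marker of the class.

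Accessible chromatin was profiled nucleus by nucleus (snATAC-seq) in 2 libraries from cortex and 2 from hippocampus of P30 mice (postnatal day 30). All mice had the genotype Dlx6aCre;Sun1/sfGFP, no other treatment was labelled, and nuclei positive for both DAPI and GFP were sorted. Dlx6aCre acts in the inhibitory lineage of the forebrain, so the sort was for inhibitory neurons of all classes and not for the Nos1 class. The labels did not say whether replicates were separate animals or pools, so p-values between brain regions measure only the spread between these libraries. Those of the later tests within libraries measure only how evenly a difference between nuclei recurred across the libraries, counting error included.

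Libraries held 2355 and 4191 nuclei from cortex and 5576 and 3184 from hippocampus (replicates 1 and 2, the order used for all values below), with 117290059, 32005984, 72384520 and 47934269 cut sites in peaks. Cortex replicate 1 stood apart in depth, with a median of 47236 cut sites per nucleus against 7352 to 14917 in the other libraries. Peaks had been called in each library on its own and covered from 33.4 Mb in cortex replicate 2 to 101 Mb in hippocampus replicate 1. Between 46 and 87 barcodes of a library recurred in another one, at most 2.03% of its nuclei. All 7 inhibitory neuron markers were open in each library, with a summed level of 683 to 1085 CPM. The 4 oligodendrocyte markers summed to 21.9 CPM in cortex replicate 1, 66.6 and 51.8 CPM in hippocampus and 0 in cortex replicate 2, where none of the 4 had a cut site in a peak. The 4 excitatory markers summed to 19.4 to 37.6 CPM, the 4 microglial ones to 204 to 265 CPM and the 3 astrocyte ones to 69.7 to 106 CPM. Most of the microglial sum came from Cx3cr1, with means of 187 CPM in cortex and 168 CPM in hippocampus over a 170 kb window. Csf1r had 36.0 and 40.5, P2ry12 10.3 and 11.3 and C1qa 1.26 and 4.08 CPM. Most of the astrocyte sum came from Aldh1l1 (88.7 and 86.4 CPM, 116 kb window), against 0 and 1.46 CPM for Aqp4 and 0.499 and 0 CPM for Gja1.

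The genes lie on 5 chromosomes of GRCm38. Nos1 (ENSMUSG00000029361) spans chr5:117781032-117958840 on the plus strand, Chodl (ENSMUSG00000022860) chr16:78930948-78951733 on the plus strand and Tacr1 (ENSMUSG00000030043) chr6:82402334-82560104 on the plus strand. Nos1ap (ENSMUSG00000038473) spans chr1:170302668-170589861 on the minus strand, and its window overlaps those of Gm7694 and Spata46. Gucy1a1 (ENSMUSG00000033910, chr3:82092427-82145789) and Gucy1b1 (ENSMUSG00000028005, chr3:82032006-82074689) are neighbours on the minus strand.

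Overlapping peaks of the 4 libraries were merged, and 120 of the 185260 merged regions fell in the 6 windows, numbered within each gene along the chromosome. Regions with a peak in every library are called common here, and 28 of the 120 were common. Of these 28, 20 lay in introns and 6 at an annotated transcript start, 1 for each gene. The sequences below are those on which the later results turn. They are from GRCm38.p6, in lower case, with motif matches in capitals. The first 3 are start sequences: for Nos1 the 300 bases before the first of the 2 annotated transcript starts in Nos1 region 13, and for Chodl and Tacr1 the RefSeq promoters.

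Nos1 start, chr5:117841550-117841849, plus strand: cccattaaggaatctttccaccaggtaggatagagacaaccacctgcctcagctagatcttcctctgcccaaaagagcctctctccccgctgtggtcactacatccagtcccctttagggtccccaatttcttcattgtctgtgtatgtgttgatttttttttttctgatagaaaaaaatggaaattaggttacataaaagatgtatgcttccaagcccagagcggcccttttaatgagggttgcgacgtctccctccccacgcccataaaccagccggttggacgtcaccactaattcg
Chodl promoter, chr16:78930698-78930997, plus strand: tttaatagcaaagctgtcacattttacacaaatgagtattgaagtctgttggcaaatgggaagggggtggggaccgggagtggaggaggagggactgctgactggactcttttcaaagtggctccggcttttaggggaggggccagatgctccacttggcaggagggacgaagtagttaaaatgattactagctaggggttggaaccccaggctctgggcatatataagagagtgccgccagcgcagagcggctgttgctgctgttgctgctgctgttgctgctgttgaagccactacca
Tacr1 promoter, chr6:82402225-82402524, plus strand: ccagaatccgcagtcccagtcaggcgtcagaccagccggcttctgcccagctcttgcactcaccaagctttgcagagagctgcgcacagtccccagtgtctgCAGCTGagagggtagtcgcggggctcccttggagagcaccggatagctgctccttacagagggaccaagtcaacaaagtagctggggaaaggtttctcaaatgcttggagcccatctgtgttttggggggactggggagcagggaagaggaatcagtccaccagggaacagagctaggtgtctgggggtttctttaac

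The next 4 are 300 bases each from intronic regions, around the middle of the bases that peaks of all 4 libraries covered, here called the centre. Nos1ap region 34 was called in Npy-open and region 46 in Sst-open nuclei (edgeR with library totals), and Nos1 region 14 and Gucy1a1 region 5 were the 2 of the 28 common regions with an unadjusted p under 0.05 between brain regions (the Nos1 one was chosen for this after its values were seen).

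Nos1ap region 34 centre, chr1:170466747-170467046, minus strand: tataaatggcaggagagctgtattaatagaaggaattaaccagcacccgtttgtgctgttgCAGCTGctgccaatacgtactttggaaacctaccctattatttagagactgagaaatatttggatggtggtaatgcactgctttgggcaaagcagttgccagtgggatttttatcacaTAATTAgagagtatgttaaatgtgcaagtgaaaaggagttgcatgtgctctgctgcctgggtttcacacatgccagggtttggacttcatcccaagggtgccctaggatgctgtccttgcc
Nos1ap region 46 centre, chr1:170512470-170512769, minus strand: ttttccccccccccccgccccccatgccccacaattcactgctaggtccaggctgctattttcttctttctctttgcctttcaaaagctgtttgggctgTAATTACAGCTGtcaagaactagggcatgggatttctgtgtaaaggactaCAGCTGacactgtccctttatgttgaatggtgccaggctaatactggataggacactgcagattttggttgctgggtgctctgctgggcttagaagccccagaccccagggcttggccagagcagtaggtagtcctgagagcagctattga
Nos1 region 14 centre, chr5:117864881-117865180, plus strand: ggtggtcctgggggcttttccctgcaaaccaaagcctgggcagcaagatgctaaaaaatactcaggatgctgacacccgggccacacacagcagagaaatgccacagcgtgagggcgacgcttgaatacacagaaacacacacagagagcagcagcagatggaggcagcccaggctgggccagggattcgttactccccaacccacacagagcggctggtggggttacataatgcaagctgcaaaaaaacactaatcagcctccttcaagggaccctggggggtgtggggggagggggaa
Gucy1a1 region 5 centre, chr3:82138009-82138308, minus strand: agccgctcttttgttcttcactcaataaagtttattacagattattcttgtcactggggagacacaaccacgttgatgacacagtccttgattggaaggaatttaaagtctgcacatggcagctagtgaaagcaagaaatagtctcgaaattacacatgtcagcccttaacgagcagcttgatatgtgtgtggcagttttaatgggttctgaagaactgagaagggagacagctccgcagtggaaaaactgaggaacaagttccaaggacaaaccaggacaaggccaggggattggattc

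Capitals mark matches, on either strand, to the cyclic AMP element TGACGTCA, the AP-1 motif TGANTCA, the homeodomain core TAATTA or the E-box CAGCTG. The Tacr1 promoter held 1 E-box, at bases 103 to 108. Nos1ap region 34 held an E-box at bases 62 to 67 and a homeodomain core at 180 to 185. Nos1ap region 46 held a homeodomain core at bases 100 to 105 that abutted an E-box at 106 to 111, with a further E-box at 150 to 155. Background windows of 300 bases were placed at the midpoints of all 46698 common regions, which need not be the centres as printed. Among them, 27.5% held the E-box, 6.32% the homeodomain core, 11.5% the AP-1 motif and 0.906% the cyclic AMP element. Among 32851 RefSeq promoters the shares were 16.3%, 5.29%, 7.81% and 1.79%. No printed Chodl, Nos1 or Gucy1a1 sequence held any of the 4. A match is a description of letters and not a binding site.

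The first comparison asked whether the genes were more accessible in hippocampal or in cortical interneuron nuclei. Tacr1 and Gucy1a1 had higher summed levels in both hippocampus libraries than in both cortex libraries, Nos1, Chodl, Nos1ap and Gucy1b1 overlapped between the brain regions, and none of the 6 passed the test. In summed libraries, fewer open nuclei and less signal per nucleus cannot be told apart.

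Nos1 read 78.5 and 96.5 CPM in cortex and 101 and 70.2 CPM in hippocampus, so that the hippocampus libraries bracketed the cortex ones. Its mean was 87.5 ± 12.7 CPM in cortex and 85.8 ± 22.1 CPM in hippocampus (SD, n = 2 each). Counted in common regions alone, Nos1 read 57.1 and 68.5 CPM in cortex and 50.0 and 50.3 CPM in hippocampus, and the brain regions then did not overlap. Common regions held 78.8% and 92.5% of the cut sites in peaks in cortex and 68.5% and 83.6% in hippocampus. CPM was still scaled to all cut sites in peaks. Over all genes the median log2 difference in common regions was -0.19, hippocampus over cortex, and the share of genes without overlap was not counted there.

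Of the 6, Nos1ap had the widest spread between the cortex libraries, with 256 and 158 CPM against 228 and 196 CPM in hippocampus. It had 46, 16, 52 and 29 peaks in the 4 libraries, and its lowest library was the one with the fewest peaks. In common regions the values drew together to 162 and 156 CPM in cortex and 136 and 151 CPM in hippocampus, with both hippocampus libraries below both cortex ones. The share of all genes in that order was not counted for common regions.

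Chodl was the sparsest of the 6, with 1 or 2 peaks per library and 7.88, 9.87, 8.63 and 9.30 CPM. The brain regions overlapped, at 8.88 ± 1.41 CPM in cortex and 8.97 ± 0.474 CPM in hippocampus.

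Tacr1 read 38.1 and 36.7 CPM in cortex and 51.8 and 50.4 CPM in hippocampus, which gave means of 37.4 ± 1.01 and 51.1 ± 0.963 CPM. Both hippocampus libraries lay above both cortex libraries. The number of Tacr1 peaks ran alongside, with 5 and 1 in cortex and 12 and 10 in hippocampus. Its only common region, Tacr1 region 1 (chr6:82401306-82403729), which holds the promoter printed above, read 27.4, 36.7, 19.4 and 27.9 CPM, where the brain regions overlapped and the direction turned.

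Of the cyclase subunits, Gucy1a1 read 32.7 and 35.7 CPM in cortex and 44.8 and 43.5 CPM in hippocampus, with no overlap. In common regions alone Gucy1a1 read 26.4, 35.7, 34.4 and 38.5 CPM, and the brain regions overlapped. Gucy1b1, which dimerizes with it, read 63.7 and 58.3 CPM in cortex and 60.2 and 64.7 CPM in hippocampus and overlapped. The partner Sst read 22.2 and 17.2 CPM in cortex and 10.5 and 7.55 CPM in hippocampus, with no overlap, and Npy read 34.4, 30.0, 28.5 and 32.4 CPM.

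**Figure D1:**
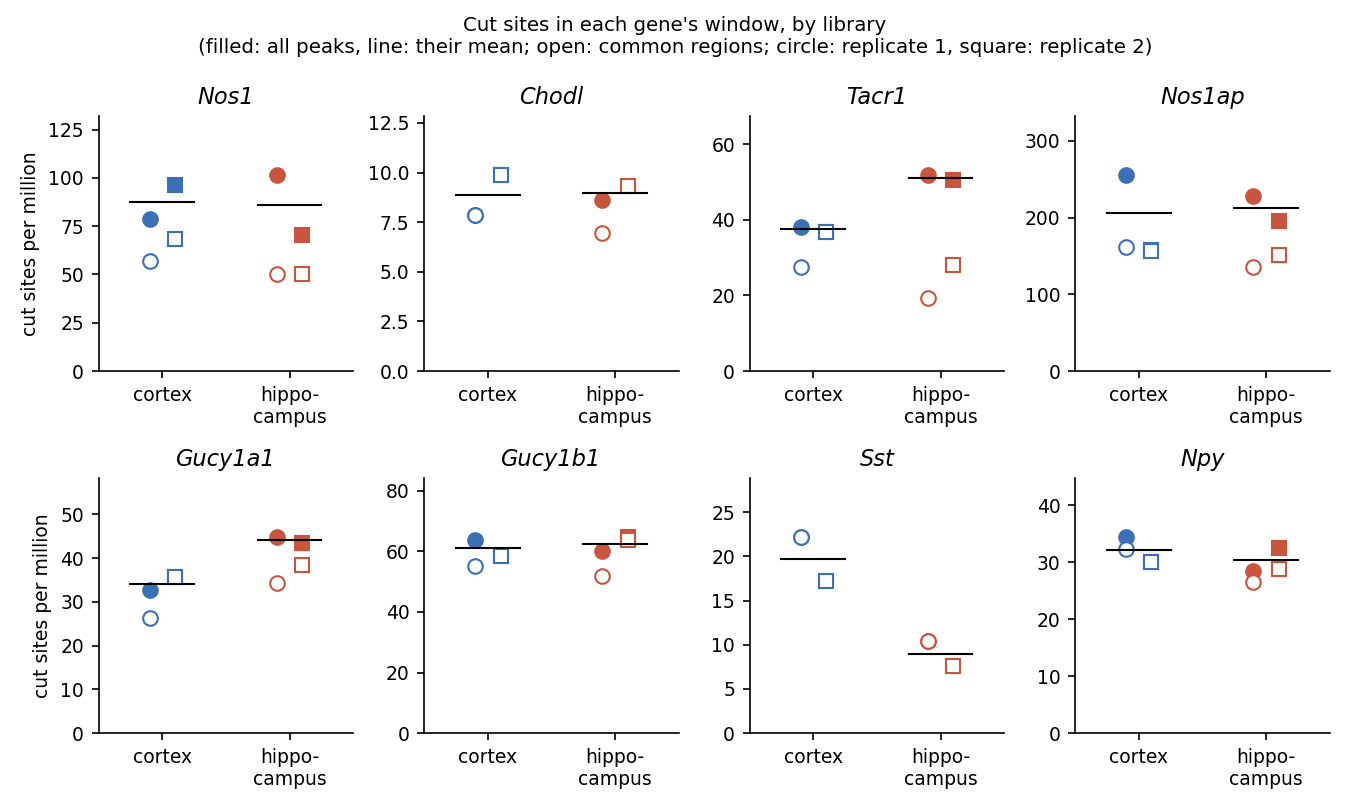
CPM (y axis, from 0) in each gene's window for cortex and hippocampus, with 1 filled and 1 open point per library and a line at the mean of the filled points. Filled points count all peaks of the library and open points common regions alone. Filled points of Tacr1 and Gucy1a1 lie higher in both hippocampus libraries and those of Sst lie lower, while the open points of Tacr1 and Gucy1a1 overlap. An open point covers a filled one of the same value.

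Genes of different length were compared per kb of window. Mean levels in cortex were 1.37 CPM per kb for Gucy1b1, 0.714 for Nos1ap, 0.618 for Gucy1a1, 0.486 for Nos1, 0.390 for Chodl and 0.234 for Tacr1. In hippocampus the order was Gucy1b1 (1.40 CPM per kb), Gucy1a1 (0.798), Nos1ap (0.734), Nos1 (0.477), Chodl (0.394) and Tacr1 (0.320). On this scale the partners, whose windows are shorter, were above all 6, at 5.82 and 2.66 CPM per kb for Sst and 3.66 and 3.46 for Npy in cortex and hippocampus. Gucy1a1 and Nos1ap had means in the reverse order in the 2 brain regions, but by library Nos1ap was the higher in cortex replicate 1 alone (0.884 against 0.592 CPM per kb), and Nos1 and Chodl were close to each other in both. Per kb of called peak in place of window, the order was another one: in cortex Gucy1b1 (27.5 CPM per kb), Gucy1a1 (16.7), Nos1ap (15.9), Nos1 (15.7), Npy (15.5), Sst (14.9), Tacr1 (14.5) and Chodl (13.7). The SDs between the cortex libraries were 7.15 to 23.0 CPM per kb. Differences between genes within a library were not assessed on this scale, so the order of neighbours in it is not settled.

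The edgeR quasi-likelihood test over 16326 genes called 20 genes (0.123% of those tested, Benjamini-Hochberg adjusted p under 0.05), 12 higher in hippocampus (0.0735%) and 8 higher in cortex (0.049%), and 0 of the 6 members. The count of 20 was not stable when a library was left out, which leaves 1 library in a brain region. It rose without either cortex library or hippocampus replicate 2, and fell without hippocampus replicate 1. None of the 6 members had an unadjusted p under 0.05, against 3.07% of all genes, and DESeq2, which called 153 genes (0.937%), called none of them either. The log2 difference, hippocampus over cortex, was 0.45 ± 0.34 (SE) for Tacr1, 0.37 ± 0.34 for Gucy1a1, 0.04 ± 0.28 for Nos1ap, 0.03 ± 0.34 for Gucy1b1, 0.02 ± 1.11 for Chodl and -0.03 ± 0.32 for Nos1, all with an adjusted p of 1.00 in edgeR. Non-overlapping brain regions, as seen for 2 of the 6, occurred in 21.8% of all genes tested, and hippocampus lay above cortex in 10.7% and below in 11.1%. Sst fell short as well, at -1.13 ± 0.52 with an unadjusted p of 0.030 in the edgeR fit. In simulated counts this fit recovered 0% of genes with a true log2 change of 1 and 29% of those with 4. A missed threshold here therefore does not mean equal levels.

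For the direction, the peak set mattered. Within 2 kb of the gene start alone, the Gucy1a1 difference became -0.32 on the log2 scale. In common regions the Tacr1 difference became -0.44, Nos1ap -0.15 and Chodl -0.13 on the log2 scale, while the median of all genes was -0.19 there and -0.10 over each library's own peaks.

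At the level of regions, the 60 in Nos1ap, 26 in Nos1, 14 in Tacr1, 9 in each cyclase gene and 2 in Chodl were compared. A peak in both hippocampus libraries and in neither cortex library was found for 10 of the 120 regions, 6 of them in Tacr1, 2 in Nos1ap and 1 each in Nos1 and Gucy1b1, and the reverse pattern for 0. Of all 185260 merged regions, 4.25% had the first pattern and 0.159% the reverse. The strongest of these in Tacr1, region 4 (chosen after its values were seen), read 4.60 and 4.74 CPM in the hippocampus libraries. A further 38 regions had a peak in a single library. Peaks were called separately at different depths, so a region with no peak holds no count rather than a measured zero.

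Gucy1a1 region 5, an intronic region 7.57 kb into the gene (chr3:82137782-82138655), had the smallest p of the 28 common regions. It read 4.77 and 4.41 CPM in cortex and 17.7 and 13.9 CPM in hippocampus, while the Gucy1a1 start region read 21.6, 31.3, 16.7 and 24.7 CPM and overlapped. Its log2 difference was 1.95 ± 0.33 with an unadjusted p of 0.0012 and an adjusted p of 0.51 in edgeR. That adjusted p was 0.0030 in DESeq2, 0.0208 with library totals in place of TMM, which moved the median of all regions from -0.02 to -0.17, and 0.0058 without cortex replicate 1. Over all alternatives it ranged up to 0.907, without hippocampus replicate 2. Over all 46698 common regions edgeR called 0 (0.0%), none of the members' 28 among them, 7.66% had an unadjusted p under 0.05, and DESeq2 called 352 (0.754%), with 260 higher in hippocampus. The edgeR count was 3184 when cortex replicate 1 was left out and 24 when cortex replicate 2 was.

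Nos1 region 14 (chr5:117864768-117865444) pointed the other way. It read 7.37 and 8.56 CPM in cortex and 1.80 and 2.82 CPM in hippocampus, with no overlap, a log2 difference of -1.66 ± 0.48, an unadjusted p of 0.0135 and an adjusted p of 0.53 in edgeR. How many of all common regions lay without overlap, in either direction, was not counted, and 7.66% had an unadjusted p under 0.05 in edgeR. The region lay 1.145 kb upstream of the RefSeq Nos1 promoter (chr5:117866589-117866888), which none of the 26 Nos1 regions overlapped. The Nos1 region at a GENCODE transcript start was region 13 (chr5:117841582-117843032), 61.3 kb into the gene. It read 16.0, 13.4, 7.36 and 11.9 CPM, higher in both cortex libraries, with an unadjusted p of 0.15. The other leading Nos1 region, number 20 in a coding exon (chr5:117915484-117916881), read 6.74, 24.6, 16.3 and 10.4 CPM and overlapped.

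**Figure D2:**
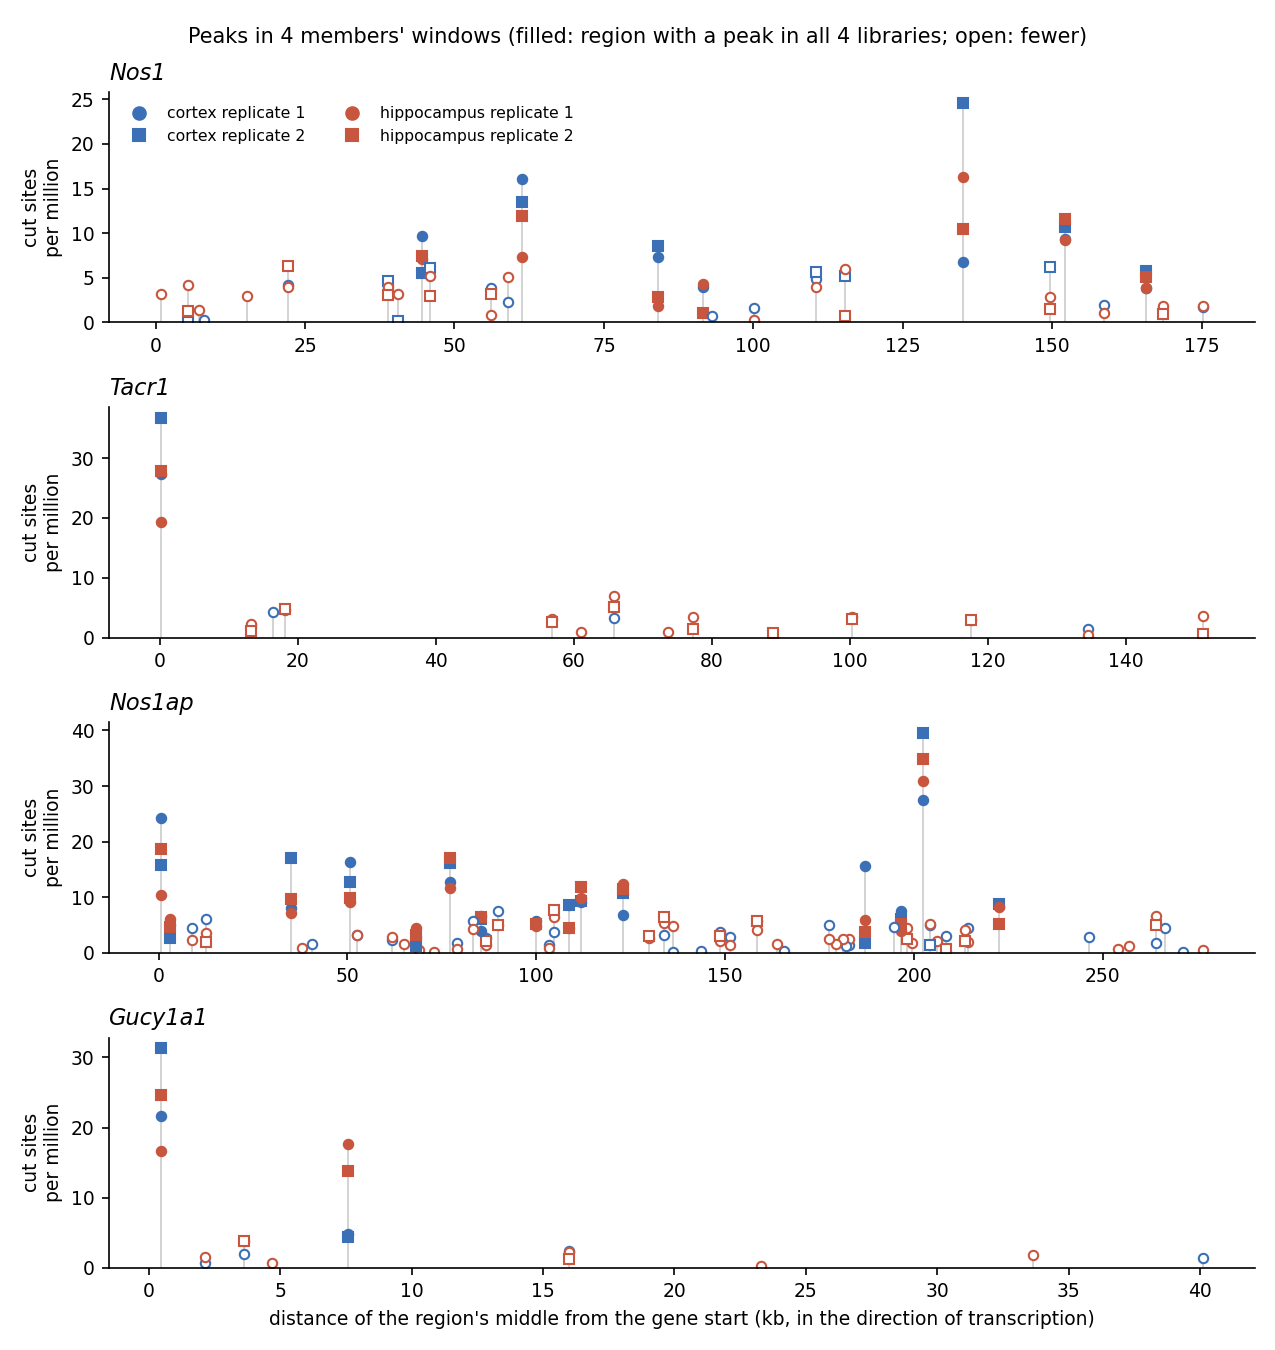
CPM (y axis) of each merged region in the windows of Nos1, Tacr1, Nos1ap and Gucy1a1 against the distance of its middle from the gene start in kb (x axis), with 1 point per library that had a peak there. Filled points are common regions. Gucy1a1 has a common region 7.57 kb in, where both hippocampus libraries are above both cortex ones, and the Tacr1 gene body beyond its start holds no common region.

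The next comparisons asked which of the genes were open in the same nuclei. Each nucleus was thinned at random to 4000 cut sites, nuclei below that depth were left out (0, 682, 635 and 130 in the 4 libraries), and a gene was called open in a nucleus with at least 1 remaining cut site in its window. Such a call covers a range of nuclei, not a cell type. Nos1 was open in 24.9%, 26.3%, 27.8% and 21.0% of nuclei, Nos1ap in 60.1%, 38.0%, 51.0% and 46.2% and Tacr1 in 11.97%, 10.7%, 16.2% and 15.4%. Chodl, with its small window, was open in 2.85%, 3.02%, 2.95% and 3.57%. Gucy1a1 was open in 9.86% to 13.1% and Gucy1b1 in 15.0% to 21.0% of nuclei. For Sst the shares were 7.64%, 4.79%, 3.42% and 2.19%, and for Npy 12.5%, 7.98%, 8.70% and 10.1%. As a measure of the background, nuclei open at 2 or more of the 4 oligodendrocyte genes, 117 and 101 in the hippocampus libraries, included 14 and 8 Nos1-open nuclei, where shares independent of each other would give 32.6 and 21.2. An open call at Nos1 thus also occurred in nuclei with the marks of another cell type.

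The 15 pairs of the 6 genes were open together about as often as the product of their shares gives. The mean ratio of observed to expected nuclei over the 4 libraries lay between 0.957 and 1.10, and 0 pairs were above 1, and 0 below, in all 4 libraries. Nos1 and Chodl were both open in 22, 26, 47 and 23 nuclei, where 16.7, 27.9, 40.7 and 22.9 were expected. Their mean ratio was 1.10 with a range of 0.93 to 1.32. The 2 cyclase subunits had a mean ratio of 1.09 (0.96 to 1.26), and Nos1 and Tacr1 1.05 (0.93 to 1.12). Without thinning, 14 of the 15 pairs were above 1 in all 4 libraries, and nuclei then differed in depth.

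With the partner genes the ratios spread more widely. Nos1 and Npy were open together in 92, 76, 132 and 82 nuclei against 73.2, 73.6, 120 and 65.0 expected, a mean ratio of 1.16 (1.03 to 1.26) that was above 1 in every library at 4000 cut sites. The lowest library was at 0.85 with nuclei thinned to 2000 cut sites and at 0.33 with a minimum of 2 cut sites per call. Nos1 and Sst were at 0.98 (0.79 to 1.21), below 1 in some libraries and above in others. Gucy1a1 and Sst were at 0.68 (0.54 to 1.03), and Gucy1b1 and Npy at 0.87 (0.74 to 1.00). Gucy1a1 with Sst did not stay below 1, with a mean of 1.05 at 2000 cut sites and 1.13 without thinning. Chodl and Sst had a mean of 1.20 but ranged from 0.59 to 1.97, on few nuclei. Sst and Npy themselves were both open in 23, 9, 13 and 4 nuclei, at a ratio of 0.79 (0.59 to 1.02) that was 1.03 at 2000 cut sites and 1.17 without thinning. Ratios are descriptions, as nuclei of a library are not replicates.

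**Figure D3:**
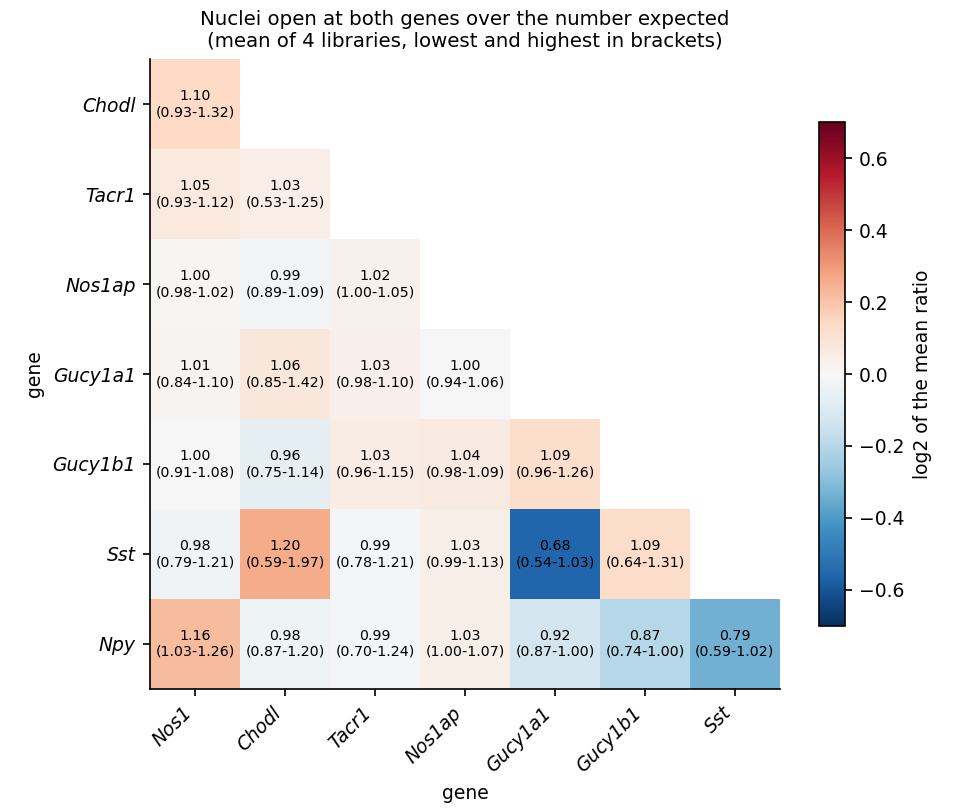
Number of nuclei open at both genes of a pair over the number expected from their shares, as the mean of 4 libraries with the lowest and highest in brackets, for the 6 genes with Sst and Npy. Colour gives the log2 of the mean ratio. Ratios among the 6 genes lie between 0.957 and 1.10, Nos1 with Npy reads 1.16 and Gucy1a1 with Sst 0.68.

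The levels of the genes in Npy-open nuclei were then tested against those in the other nuclei of the same library, as 8 sums with the library as a block. Nos1 was higher in Npy-open nuclei of all 4 libraries, both cyclase subunits were lower in all 4, and Tacr1 was lower in cortex and higher in hippocampus. None passed the threshold after adjustment over all genes. Of 16493 genes tested, edgeR called 95 (0.576%) and 0 of the 6 members. An unadjusted p under 0.05 was reached by 3 of the 6, Nos1, Gucy1b1 and Nos1ap, and by 9.33% of all genes. The number of calls was 56 without cortex replicate 1, 36 without hippocampus replicate 1 and 36 without hippocampus replicate 2.

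Nos1 in Npy-open nuclei read 97.8 and 114 CPM in cortex and 110.5 and 97.9 CPM in hippocampus, against 76.9 and 98.3 CPM and 101 and 65.9 CPM in the other nuclei. The log2 ratio was 0.30 ± 0.08, with an unadjusted p of 0.00040 and an adjusted p of 0.061 in edgeR, and 6.39% of all genes were likewise higher in all 4 libraries. Over the alternatives the adjusted p ranged from 1.4e-05 without thinning to 0.549, and it was 0.035 with TMM, 0.046 without the deepest nuclei and 0.063 without nuclei open at 2 or more oligodendrocyte genes, an alternative chosen after the data were seen. The difference of the ratios between brain regions, hippocampus less cortex, was 0.03 ± 0.16 on the log2 scale (edgeR interaction, adjusted p = 1.00). Without thinning it was -0.22 ± 0.08, with an unadjusted p of 0.0065 and an adjusted p of 0.81. Split further, nuclei open at Npy alone read 95.9, 113, 113 and 96.7 CPM of Nos1, those open at Sst alone 81.2, 110.1, 76.9 and 75.4 CPM, and those open at neither 76.5, 97.7, 101 and 65.7 CPM.

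Seen from the other side, Npy in Nos1-open nuclei read 46.1 and 31.2 CPM in cortex and 33.6 and 40.5 CPM in hippocampus, against 34.9, 29.1, 26.2 and 31.1 CPM in the other nuclei. The ratio was 0.31 ± 0.09 on the log2 scale with an adjusted p of 0.096 in edgeR (range over the alternatives 0.019, without cortex replicate 2, to 0.814). Both views use the same nuclei and are not independent of each other.

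The cyclase subunits went the other way with Npy. Gucy1b1 read 62.1, 39.3, 48.3 and 51.0 CPM in Npy-open nuclei against 64.9, 61.2, 57.4 and 64.3 CPM in the others, a log2 ratio of -0.30 ± 0.11 (edgeR adjusted p = 0.24). Gucy1a1 read 28.9, 29.5, 37.2 and 35.6 CPM against 31.2, 38.4, 43.8 and 43.1 CPM, a log2 ratio of -0.25 ± 0.13 (edgeR adjusted p = 0.54). Of all genes 8.6% were lower in all 4 libraries.

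Tacr1 in Npy-open nuclei read 32.3 and 30.4 CPM in cortex against 36.1 and 40.4 CPM in the other nuclei, and 67.4 and 59.1 CPM in hippocampus against 52.6 and 48.4 CPM. It was thus lower in both cortex libraries and higher in both hippocampus libraries, and 10.5% of all genes split by brain region in this way or the reverse. The difference of the log2 ratios, hippocampus less cortex, was 0.62 ± 0.24, with an unadjusted p of 0.0095 and an adjusted p of 0.96 in the edgeR interaction. That interaction called 0 of 16493 genes (0.0%), with 5.17% at an unadjusted p under 0.05. Nos1ap had a log2 ratio of 0.13 ± 0.06 (adjusted p = 0.39) and Chodl one of -0.01 ± 0.25 (adjusted p = 1.00) in the edgeR fit.

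In Sst-open nuclei the picture differed by gene, and again none of the 6 passed. edgeR called 158 of 16402 genes (0.963%), a count that was 43 to 145 with 1 library left out (43 without cortex replicate 1, 81 without cortex replicate 2 and 50 without hippocampus replicate 1). Gucy1a1 was lower in Sst-open nuclei of all 4 libraries, a pattern of 10.3% of all genes, with 19.4, 37.2, 20.7 and 33.6 CPM against 31.8, 37.7, 44.1 and 42.5 CPM. Cortex replicate 2 was the library with almost no gap. The log2 ratio was -0.52 ± 0.21 with an adjusted p of 0.25 in edgeR. An unadjusted p under 0.05 was reached by Gucy1a1 and Gucy1b1, 2 of the 6, and by 10.5% of all genes. Gucy1b1 was higher in 3 of 4 libraries (6.29% of all genes were so in all 4), with 73.6, 83.3, 75.4 and 44.8 CPM against 63.8, 58.2, 56.0 and 63.4 CPM, and a log2 ratio of 0.28 ± 0.14 (edgeR adjusted p = 0.47). The 2 subunits of the same enzyme thus had values on opposite sides of 0 with Sst at 4000 cut sites, but with nuclei thinned to 2000 both were above 0 (0.15 for Gucy1a1 and 0.24 for Gucy1b1), and the difference between them was not tested.

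Nos1 in Sst-open nuclei read 86.1, 112, 72.5 and 82.1 CPM against 79.0, 99.0, 102 and 68.9 CPM. It was higher in all libraries but hippocampus replicate 1, and the log2 ratio was -0.01 ± 0.13 (edgeR adjusted p = 0.99). Chodl read 4.17, 20.8, 11.8 and 11.2 CPM against 8.28, 9.35, 8.85 and 11.2 CPM, which the cortex libraries split in opposite directions, and its log2 ratio was 0.38 ± 0.36 (edgeR adjusted p = 0.81). Tacr1 (-0.10 ± 0.18) and Nos1ap (0.02 ± 0.09) were near 0 on the same scale. Npy in Sst-open nuclei had a log2 ratio of -0.39 ± 0.22 (edgeR adjusted p = 0.56), below 0 in all libraries but cortex replicate 1. The Sst interaction with brain region called 0 of 16402 genes (0.0%, with 4.54% at an unadjusted p under 0.05), and the Nos1 difference in it was -0.41 ± 0.26 (unadjusted p = 0.12 in edgeR) and -0.30 ± 0.11 without thinning (unadjusted p = 0.0063 and adjusted p = 0.35 in edgeR).

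**Figure D4:**
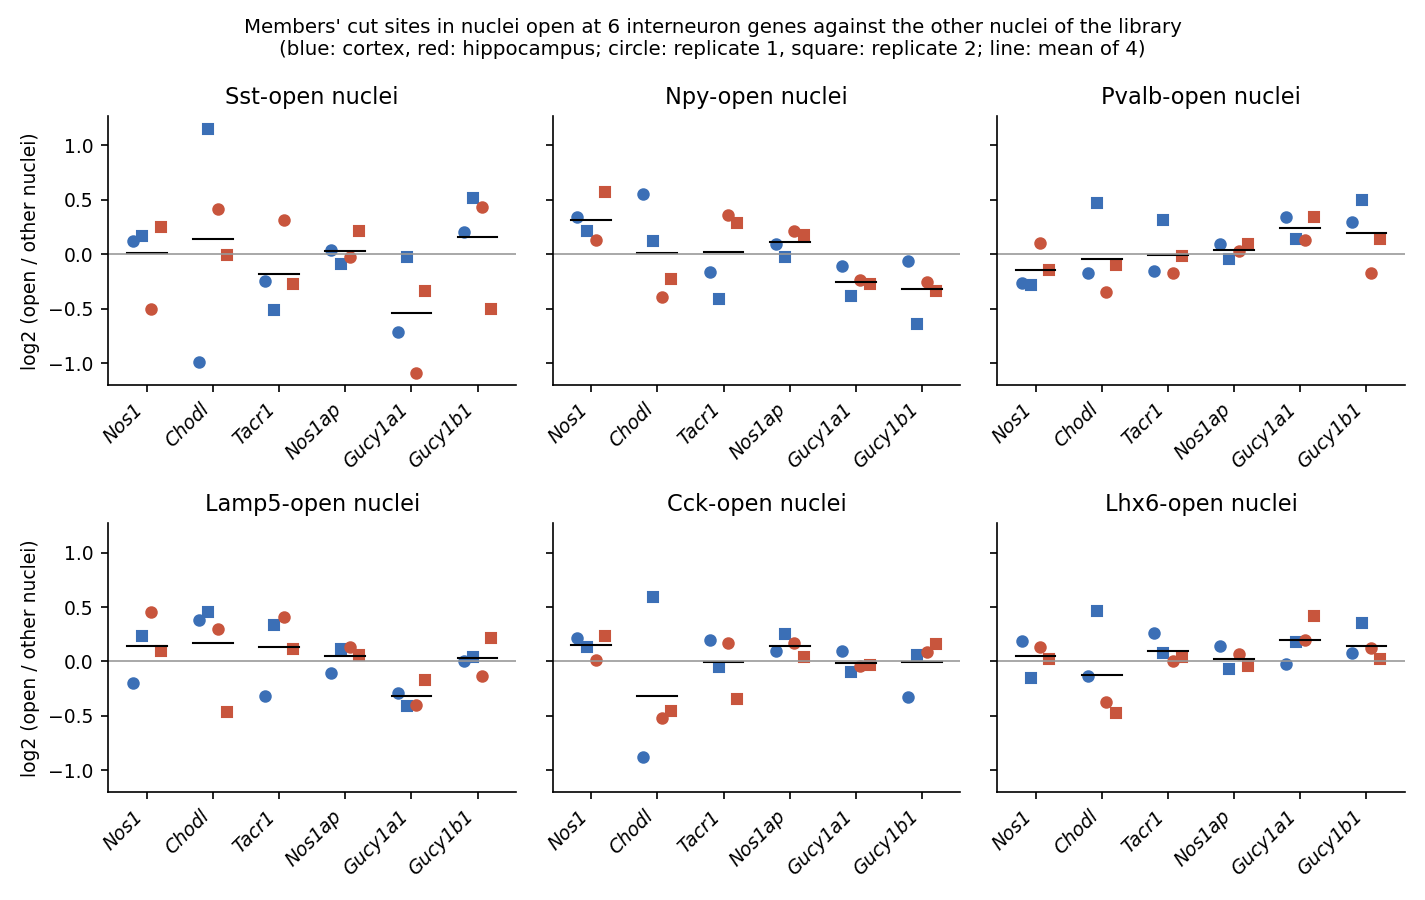
Log2 ratio of each gene's cut sites in open over other nuclei (y axis) for nuclei open at Sst, Npy, Pvalb, Lamp5, Cck or Lhx6, with 1 point per library and a line at the mean of 4. In Npy-open nuclei the points of Nos1 lie above 0 in all 4 libraries and those of Gucy1a1 and Gucy1b1 below 0, while Tacr1 splits by brain region.

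Single regions were then tested in the same nuclei, where a larger share of all features was called than among genes. Among the members' 28 common regions, 1 passed with Npy, against 366 of all 46677 tested (0.784%), and 1 passed with Sst, against 995 of all 46668 (2.13%, with 1.27% higher and 0.866% lower). Both lay in introns of Nos1ap, and 1 call with each partner is too few to set the members apart from these shares. With 1 library left out the Npy count was 216 and 205 without cortex replicates 1 and 2 and 162 and 193 without hippocampus replicates 1 and 2, and the Sst count was 246 without cortex replicate 1, 288 without cortex replicate 2 and 332 without hippocampus replicate 1.

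Nos1ap region 34 (chr1:170466379-170467268), 123 kb into the gene, rose with Npy. It read 11.9 and 24.1 CPM in Npy-open nuclei of cortex and 26.7 and 19.4 CPM in those of hippocampus, against 6.67, 11.0, 11.97 and 10.9 CPM in the other nuclei. The values rest on 14, 27, 46 and 24 thinned cut sites, and each library was higher, as were 7.26% of all regions tested. The log2 ratio was 1.02 ± 0.20 with an adjusted p of 0.0010 in edgeR. It was 0.065 without hippocampus replicate 1 and 0.46 with nuclei thinned to 2000 cut sites. In Sst-open nuclei the same region read 2.78, 2.98, 5.92 and 3.73 CPM, on 2, 2, 4 and 1 cut sites, against 7.70, 12.5, 13.5 and 11.97 CPM in the others, and the log2 ratio of -1.54 ± 0.48 missed the threshold (edgeR adjusted p = 0.057). Its sequence, printed above, held the E-box and the homeodomain core.

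Nos1ap region 46 (chr1:170511993-170513667), 77.0 kb into the gene, fell with Sst. It read 1.39, 5.95, 4.44 and 14.9 CPM in Sst-open nuclei against 14.1, 17.1, 11.4 and 16.8 CPM in the others, lower in all 4 libraries (as were 13.0% of all regions tested), with the smallest gap in hippocampus replicate 2. The values in Sst-open nuclei rest on 1, 4, 3 and 4 thinned cut sites. The log2 ratio was -1.46 ± 0.42 with an adjusted p of 0.031 in edgeR. It no longer passed without cortex replicate 1 (0.38), cortex replicate 2 (0.18) or hippocampus replicate 1 (0.12), or with nuclei thinned to 2000 cut sites (0.50). With Npy its log2 ratio was -0.09. The Nos1ap start region (chr1:170588084-170590233), by comparison, had a log2 ratio of 0.10 with Npy and -0.14 with Sst, and neither passed. The most accessible Nos1ap region, the intronic region 14 (chr1:170386725-170388175), read 27.5, 39.5, 30.9 and 34.8 CPM in the 4 libraries, where the brain regions overlapped. Its log2 ratio was 0.36 ± 0.19 with Sst (edgeR adjusted p = 0.39) and -0.06 with Npy.

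**Figure D5:**
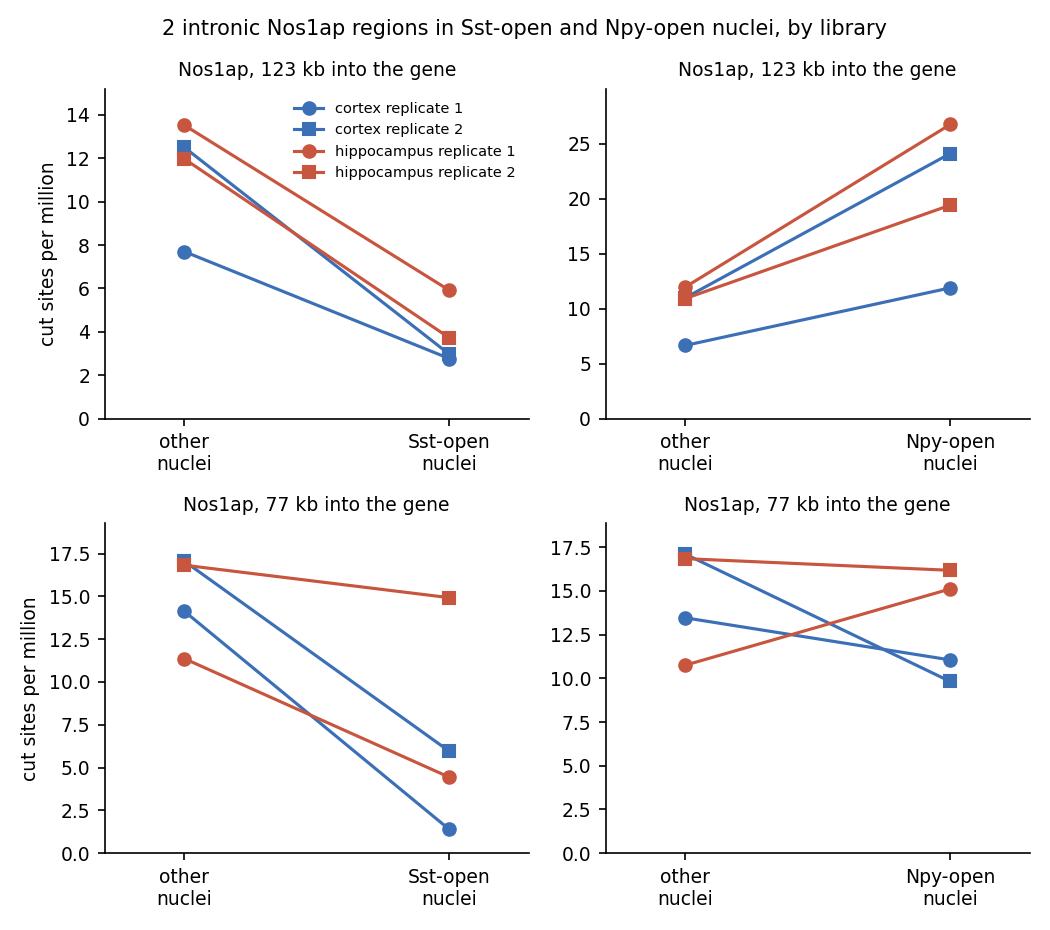
CPM (y axis, from 0) of 2 intronic Nos1ap regions in the other nuclei and in the Sst-open or Npy-open nuclei, with lines joining the values of a library. The region 123 kb into the gene is higher in Npy-open nuclei in each library, and the region 77 kb in is lower in Sst-open nuclei in each library.

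In Nos1 itself, 6 of the 7 common regions had a positive log2 ratio with Npy. The median of the 7 was 0.42, against -0.02 over all regions tested, and the share of all regions above 0 was not counted. An unadjusted p under 0.05 was reached by 3 of them, against 10.1% of all regions. The 3 were region 9 in an intron (0.69, unadjusted p = 0.0074), the transcript start region 13 (0.48 ± 0.22, unadjusted p = 0.027) and the exonic region 20 (0.39, unadjusted p = 0.048), and none passed the edgeR adjustment. The 7 regions are parts of the Nos1 window tested above in the same nuclei and are not independent of that result. With Sst, 3 of the 7 were positive. Of the start regions of the other genes, that of Gucy1b1 (chr3:82072860-82075086) had -0.28 with Npy (unadjusted p = 0.021 in edgeR). Gucy1b1 region 5, in a coding exon (chr3:82060432-82062323), read 23.6, 1.49, 25.1 and 18.7 CPM in Sst-open nuclei, on 17, 1, 17 and 5 thinned cut sites, against 12.6, 0.374, 12.8 and 10.3 CPM in the others. It was higher in Sst-open nuclei of all 4 libraries, as were 8.27% of all regions tested, and its log2 ratio of 0.95 ± 0.35 (unadjusted p = 0.0071) did not pass (edgeR adjusted p = 0.14). In cortex replicate 2 the peak covered 23 bp of this region. The Chodl start region had log2 ratios of -0.03 with Npy and 0.16 with Sst, and the Tacr1 start region 0.01 and -0.20.

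The Nos1, Chodl and Tacr1 gates were also tested over all genes, to find what else opened in the same nuclei. In Nos1-open nuclei edgeR called 121 of 16654 genes (0.727%), 17 higher (0.102%) and 104 lower (0.624%), and none of the 5 other members, of which only Tacr1 was among the 9.62% with an unadjusted p under 0.05. With TMM the split was 27 higher and 84 lower. The count was 271 without cortex replicate 2, 3 without hippocampus replicate 1 and 2 without hippocampus replicate 2. Without either hippocampus library, 0 of the calls were higher in Nos1-open nuclei. Among the 14 genes that passed and were higher in all 4 libraries, the largest ratios on the log2 scale were those of Gm8251 (0.84 ± 0.21), Pax4 (0.84 ± 0.19), Cacna2d1 (0.48 ± 0.08), Gm9913 (0.37 ± 0.09) and Ptprc (0.37 ± 0.08), with edgeR adjusted p of 0.030, 0.0095, 0.00055, 0.033 and 0.0040. Gm9913 alone of these did not pass without thinning (log2 ratio 0.15, edgeR adjusted p = 0.16). Cacna2d1 encodes an auxiliary subunit of voltage-gated calcium channels. Of the members, Tacr1 had the smallest p, with a log2 ratio of 0.17 ± 0.08 (edgeR adjusted p = 0.46).

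In all, 90 genes passed with a log2 ratio below 0 and were higher in Nos1-open nuclei of none of the 4 libraries. A library without a cut site in the gene met this rule too. Among the 90, Olig2, a transcription factor of the oligodendrocyte lineage, had the lowest log2 ratio, at -2.13 ± 0.41 (edgeR adjusted p = 0.0021). It was followed by Ly6g6f (-2.09), Ppp1r14a (-1.95), Tmem125 (-1.91) and Xaf1 (-1.82), of which Ppp1r14a had the smallest adjusted p, 3.85e-07 in edgeR. With the 9, 0, 117 and 101 nuclei open at 2 or more oligodendrocyte genes left out, the calls numbered 60, with 14 higher and 46 lower. In the nuclei left out, Nos1 itself read 38.5 and 29.7 CPM in hippocampus against 103 and 70.5 CPM in the rest.

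Chodl-open nuclei, 67 to 146 per library, gave 0 calls among 16385 genes (0.0%) in edgeR, with 766 genes (4.68%) at an unadjusted p under 0.05. Nos1 read 116, 89.6, 119.9 and 61.9 CPM in them against 78.5, 99.9, 101 and 69.4 CPM in the others, higher in replicate 1 and lower in replicate 2 of each brain region. Tacr1-open nuclei gave 24 calls among 16592 genes (0.145%, with 7.02% at an unadjusted p under 0.05), all of them lower, led by Gm10277, Xaf1, Cmtm5, Nat8f4 and Erbb3, and 11 calls without the oligodendrocyte-open nuclei. The 24 became 8 without cortex replicate 1, 53 without cortex replicate 2, 5 without hippocampus replicate 1 and 0 without hippocampus replicate 2. In both gates none of the other 5 members passed.

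The wider nitric oxide and cyclic GMP pathway was read from 25 further genes: other synthases, cyclase subunits, cyclic GMP kinases and phosphodiesterases, enzymes of arginine and cofactor supply, and the tachykinin ligand and receptors. Between brain regions 0 of the 25 passed, 11 were positive, and the median log2 difference was -0.07 against -0.10 for all genes. Pde9a, a phosphodiesterase specific for cyclic GMP, had the smallest p. It read 116 and 134 CPM in cortex and 204 and 179 CPM in hippocampus, with no overlap, and a log2 difference of 0.61 ± 0.29 (unadjusted p = 0.033, edgeR adjusted p = 1.00). Gucy1b2, a further cyclase subunit gene, followed with 0.60 ± 0.34, Pde1a with 0.56 ± 0.34 and Nostrin with -0.48 ± 0.35.

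With Sst, 0 of the 25 passed, 15 were positive and the median was 0.03, against -0.02 for all genes. Pde1a, a calmodulin-dependent phosphodiesterase, had a log2 ratio of 0.52 ± 0.18 (edgeR adjusted p = 0.13), Pde5a, which degrades cyclic GMP, one of -0.34 ± 0.13 (0.22), and the synthases Nos3 and Nos2 had 0.32 ± 0.16 and 0.65 ± 0.33 (both 0.47). With Npy, 0 passed, 16 were positive and the median was 0.06, against -0.01 for all genes. The 4 smallest p there were those of Gucy1a2 (0.31 ± 0.11, edgeR adjusted p = 0.23), Pde9a (-0.18 ± 0.07), Ddah2 (-0.59 ± 0.22) and Nosip (-0.29 ± 0.13). Gucy1a2 encodes the other alpha subunit of the cyclase, and its sign with Npy was opposite to that of Gucy1a1.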

How the data were processed

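Per the labels, nuclei were sorted and processed with the 10x Genomics ATAC protocol, and the submitters' processing notes name Cell Ranger ATAC 1.2.0 and the builds GRCm38 and mm10. The deposited matrices hold raw counts of cut sites per peak and nucleus, made by the authors with no normalization, and peaks were listed separately for each of the 4 libraries. Deposited motif count matrices were not used. All merged regions lay inside the lengths of the GRCm38 chromosomes.

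The 6 members, the 25 pathway genes and the other lists were chosen with earlier results of these data known. Counts were summed over peaks overlapping, by at least 1 bp, the gene body or the 2 kb upstream (GENCODE M21, protein-coding genes), and divided by all cut sites in peaks. Brain regions were compared with edgeR 4.0.16 in R 4.3.3 (robust quasi-likelihood F test, two-sided, filterByExpr, Benjamini-Hochberg threshold 0.05), with library totals for genes and TMM for the 46698 common regions, n = 2 against 2. For single values, the smallest p of an exact permutation test with 2 against 2 is 0.333, so none is given. For nuclei open at a gene, nuclei were thinned to 4000 cut sites, and open and other nuclei were summed per library and tested with the library as a block. Doublets were not removed. Fold changes used a prior count of 0.125.

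Alternatives were DESeq2 1.42.0, TMM or library totals, no filter, other peak sets and windows, no thinning or thinning to 2000 cut sites, a minimum of 2 cut sites for an open call, leaving out nuclei above the 90th percentile of depth, a block on the replicate number and leaving out each library. Common regions with TMM and the removal of nuclei open at 2 or more oligodendrocyte genes were added after the data were seen. Whether same-numbered libraries were paired is not known. Their deviations correlated with r = -0.00026 over 14786 genes, which cannot decide it, as peaks were called separately at different depths.

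Genes named were the 6 members, Sst and Npy, the 4 pathway genes with the smallest p in each comparison, and up to 5 genes with the largest ratio among those passing and higher in all 4 libraries for the Nos1, Chodl and Tacr1 gates. The genes lower in those gates, and Nos1 regions 9 and 14, Tacr1 region 4, Nos1ap region 8 and Npy region 3, were named after their values were seen. Regions named were the 2 with the highest CPM per member and those called in edgeR. Scripts were first tested on simulated data. Changed features were drawn only from those at or above the median count, with the same scatter for all features. The shares recovered therefore do not cover sparser genes or regions. Between brain regions, 29% of genes and 100% of regions with a true log2 change of 4 were recovered, and 0% and 1% of those with 1. For open against other nuclei, 97% (Sst) and 100% (Npy) of genes with a true log2 change of 1 were recovered, and 23% and 61% of those with 0.4. Cut sites per nucleus limit the precision of an open call. Shares of nuclei have exact Clopper-Pearson 95% intervals that cover counting error only, such as 23.1% to 26.7% for Nos1 in cortex replicate 1. Promoter sequences are from RefSeq (GRCm38.p6).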

Additional observations from a re-analysis of the deposited data

Results flagged for a closer look

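In 2 of 21 comparisons of a member or partner in Nos1-open, Chodl-open or Tacr1-open nuclei, every cortex library moved one way and every hippocampus library the other, and the difference between brain regions was not tested in either. Of all genes, 10.4%, 10.8% and 11.3% split in this way in the Nos1, Chodl and Tacr1 gates. Npy in Tacr1-open nuclei read 31.0 and 20.1 CPM in cortex against 38.6 and 30.8 CPM in the other nuclei, and 33.5 and 36.7 CPM in hippocampus against 27.2 and 32.4 CPM. The mean log2 ratio was 0.71 higher in hippocampus. The Npy-open view of the same nuclei, given above for Tacr1, is not independent of it.

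Nos1ap in Nos1-open nuclei read 249.6 and 157 CPM in cortex against 252 and 163 CPM in the other nuclei, and 233 and 204 CPM in hippocampus against 221 and 187 CPM. The mean log2 ratio was 0.14 higher in hippocampus, and the cortex ratios lay close to 0.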

How the results depend on the processing

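Against 20 genes called between brain regions, TMM gave 1, regions at least 50% covered by each library 0, windows within 2 kb of the gene start 6, thinned nuclei 11, common regions with TMM 0 and DESeq2 153 (120 higher and 33 lower in hippocampus, against 12 and 8), and leaving out 1 library gave 6 to 725. Regions went from 0 to 275 with library totals, 352 with DESeq2 and 0 to 3184 with 1 library left out. The replicate block called 0 genes and 0 regions. Whether replicate numbers pair the libraries is not known, so these counts cannot tell a weaker effect from a block without meaning.

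Without thinning, calls rose to 1452 with Sst, 679 with Npy, 995 with Nos1, 6 with Chodl and 390 with Tacr1, and the interactions to 47 (Sst) and 2 (Npy). Thinning to 2000 cut sites gave 4, 27, 61 and 1 calls with Sst, Npy, Nos1 and Tacr1 and 8 and 23 regions with Sst and Npy, and the 1 gene with Tacr1 was higher where all 24 had been lower. A minimum of 2 cut sites gave 1, 0, 0 and 0 genes. An Npy gate within 2 kb of the start gave 12 genes and a Tacr1 gate 4, while such a Nos1 gate could not be fitted and was not run. Without oligodendrocyte-open nuclei the Nos1 and Tacr1 gates gave 60 and 11. TMM split the Npy calls 62 higher to 51 lower, against 37 to 58. Leaving out 1 library gave 43 to 145 genes with Sst, 36 to 101 with Npy, 2 to 271 with Nos1, 0 to 1 with Chodl and 0 to 53 with Tacr1, and 246 to 958 and 162 to 216 regions with Sst and Npy. Member pairs above 1 in all 4 libraries numbered 1 with 2000 cut sites, 14 without thinning and 1 without the deepest nuclei.

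For the members, the 2 partners and the named regions, 170 of the alternative values kept direction and side of the threshold, 2 lost a call, 7 gained one and 37 turned direction. With 1 library left out these numbers were 117, 4, 2 and 17. The log2 differences between brain regions that turned direction were Nos1 0.0853 (TMM), 0.0989 (DESeq2) and 0.0085 (50% covered). Chodl turned to -0.13 in common regions, 50% covered regions and the 2 kb window, and Tacr1 to -0.44 in each of these and -0.26 in common regions with TMM. Nos1ap turned to -0.15 (common regions), -0.0830 (50% covered) and -0.46 (2 kb), Gucy1a1 to -0.35 (50% covered) and -0.32 (2 kb), and Gucy1b1 to -0.15 in both and -0.0521 with thinned nuclei. Npy turned to 0.00069 (DESeq2) and 0.0030 (common regions with TMM). With Npy, Chodl turned to 0.0072 (TMM) and 0.0506 (no thinning), Tacr1 to -0.12 (2000 cut sites) and -0.19 (2 cut sites per call), and Sst to 0.0914 (2000 cut sites), 0.0391 (no thinning) and 0.23 (2 kb gate). With Sst, Nos1 turned to 0.0086 (TMM), 0.0484 (no thinning) and 0.12 (2 cut sites per call), Nos1ap to -0.11 (2000 cut sites), -0.0448 (no thinning) and -0.0529 (2 cut sites per call), Tacr1 to 0.0869 (2000 cut sites) and 0.0036 (no thinning), Chodl to -0.0820 and Gucy1a1 to 0.15 (both 2000 cut sites).

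With 1 library left out, the brain region differences that turned ranged from -0.32 to 0.21 for Nos1, -0.14 to 0.19 for Chodl, -0.27 to 0.43 for Nos1ap, -0.0286 to 0.0981 for Gucy1b1 and -0.17 to 0.0247 for Npy. With Npy, Chodl ranged from -0.17 to 0.13 and Tacr1 from -0.0409 to 0.22, and with Sst, Nos1 ranged from -0.10 to 0.17, Chodl from -0.0895 to 0.67, Tacr1 from -0.35 to 0.0296 and Nos1ap from -0.0188 to 0.0491. The cause was not tested for any of these. Where an arm kept 1 library, it was assumed to vary like the other. Open calls were made at 4000 cut sites per nucleus, where Chodl had few open nuclei, and cortex replicate 2 had the fewest peaks.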

Other observations

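Levels of the 6 genes were also read in nuclei open at other interneuron genes, as means of the log2 ratio over the 4 libraries and with no test. Gucy1a1 was higher in Pvalb-open nuclei of all 4 libraries (mean 0.24, from 0.14 to 0.34), as were 7.66% of all genes, where parvalbumin marks fast-spiking interneurons. It was lower in Lamp5-open nuclei of all 4 (mean -0.32, from -0.41 to -0.17), as were 8.09% of all genes, where Lamp5 marks neurogliaform cells among others. Lhx6 encodes a transcription factor of interneurons from the medial ganglionic eminence, and in Lhx6-open nuclei Sst (mean 0.64), Gucy1b1 (0.14) and Tacr1 (0.10) were higher in all 4 libraries, against 8.55% of all genes. In Cck-open nuclei the same held for Nos1 (0.15) and Nos1ap (0.14), against 5.38% of all genes. These windows were chosen among several, and the members were not tested in them.

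Within the Npy locus, a distal region in a coding exon (Npy region 3, chr6:49828366-49829367, chosen after its values were seen) held 4, 0, 0 and 0 thinned cut sites in Sst-open nuclei and 69, 124, 230 and 140 in the other nuclei. Its log2 ratio was -2.54 ± 0.62 (edgeR adjusted p = 0.0062), while the Npy start region had 0.17. Nos1ap region 8 (chr1:170366954-170367851), also chosen after its values were seen, had a log2 ratio of 1.14 ± 0.35 in Sst-open nuclei (edgeR adjusted p = 0.051, and 0.0499 with TMM).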
